A study of Mus musculus with 103 samples.

Results

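The genes described here are 7 products of the acid and enzyme secreting cells of the gastric gland. They were taken as a list of named genes, Atp4a, Atp4b, Kcne2, Cblif (also written Gif), Pgc, Lipf and Bhlha15, and every probe set annotated to them was read. This gave 8 probe sets for 7 genes, out of 17097 genes measured. Bhlha15 had 2 probe sets and each other gene 1, and the probe set with the higher mean over all arrays stood for Bhlha15.

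In the gastric gland, parietal cells secrete hydrochloric acid and chief cells secrete pepsinogens. The acid pump exchanges protons for potassium ions at the apical membrane of the parietal cell, and a potassium channel returns the potassium that the pump needs. In rodents, chief cells also make the intrinsic factor that carries vitamin B12, a task of parietal cells in human stomach. Atp4a encodes the catalytic alpha subunit of the pump and Atp4b its beta subunit. Kcne2 encodes the accessory subunit of the potassium channel, Cblif the intrinsic factor, Pgc the pepsinogen progastricsin, Lipf gastric lipase, which chief cells make in human stomach, and Bhlha15 the transcription factor Mist1 of cells with much regulated secretion.

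Mouse RNA was hybridised to Affymetrix expression arrays, with a single array for each sample. The samples were 7 metastases, 56 primary tumours and 40 preparations of organ cells, enriched with magnetic beads for those that carry Prominin1, the surface product of Prom1. The gastric samples were 1 abdominal and 1 liver metastasis of gastric adenocarcinoma, 4 gastric adenocarcinomas, 7 gastric adenomas and 2 preparations of stomach cells positive for Prom1. The other 88 samples were tumours, metastases and Prom1+ cells of other organs.

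Beside them stood tumours of skin (squamous cell carcinoma, 4 perineal, 3 perioral and 1 periorbital), of uterus (3 carcinomas), of lung (2 bronchopulmonary adenocarcinomas), of intestine (5 large and 3 small intestinal adenomas), of prostate (8 adenocarcinomas) and of liver. The liver tumours were 2 hepatoblastomas and 14 tumours labelled hepatocellular carcinoma/cholangiocarcinoma, here HCC/CC. Prom1+ cells came from uterus (4 samples), small intestine (3), salivary gland (3), prostate (3), lung (4), kidney (4) and liver. Liver gave 3 neonatal samples, 9 from mice given DDC, a compound that injures hepatocytes and bile ducts, and 5 without treatment. By the design text, Prom1-expressing cells of several organs were traced over time and were targeted with oncogenic changes. The labels give neither the oncogenic alleles nor the strain and age of the mice. Nor do they tie samples to animals, so the p-values speak to the spread among samples, part of which may be technical. Tumours were dissected and extracted whole, while stomach cells passed a bead selection and another RNA kit, so tissue handling and group cannot be told apart in comparisons between them.

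Values are log2 array signals, called levels, and differences between groups are differences of levels, given with the standard error of limma. A gene was called when its Benjamini-Hochberg adjusted p over all genes tested was under 0.05 and its difference at least 1. Levels under about 4 lie near the background of the array, so a difference against such a level is a lower bound. Probe sets of different genes bind unequally, so levels are compared within a gene only. A gene was tested where the mean of any group compared was above a filter value near 4, so a gene near background in one group was tested only if it was high in another and could then differ in 1 direction only. Counts of called genes are descriptions with that limit. In whole tissue, fewer cells of a type and less RNA per cell cannot be told apart.

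The start site windows of Atp4a, Kcne2, Cblif and Pgc are shown because these genes were called lower in adenocarcinomas than in adenomas and stomach cells. Each is 300 bases long and spans the annotated start, from RefSeq on GRCm38.p6. A window was matched to 6 of the 7 genes, all but Atp4b, and Kcne2 had 2 windows, of which the first is shown. Capitals mark TATAAA, the core of a TATA box.
Atp4a, plus strand, chr7:30711959-30712258: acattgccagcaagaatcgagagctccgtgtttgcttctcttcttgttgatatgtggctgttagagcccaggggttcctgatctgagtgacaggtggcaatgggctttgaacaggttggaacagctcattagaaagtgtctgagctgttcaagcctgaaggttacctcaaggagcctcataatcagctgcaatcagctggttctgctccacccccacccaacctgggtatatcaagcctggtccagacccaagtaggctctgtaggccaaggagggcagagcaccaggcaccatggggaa
Kcne2, plus strand, chr16:92292139-92292438: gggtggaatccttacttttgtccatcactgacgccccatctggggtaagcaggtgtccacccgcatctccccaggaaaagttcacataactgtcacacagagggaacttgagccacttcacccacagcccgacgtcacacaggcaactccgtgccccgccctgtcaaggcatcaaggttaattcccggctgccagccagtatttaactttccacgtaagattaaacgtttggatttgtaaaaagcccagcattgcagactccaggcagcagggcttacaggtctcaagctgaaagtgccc
Cblif, plus strand, chr19:11747309-11747608: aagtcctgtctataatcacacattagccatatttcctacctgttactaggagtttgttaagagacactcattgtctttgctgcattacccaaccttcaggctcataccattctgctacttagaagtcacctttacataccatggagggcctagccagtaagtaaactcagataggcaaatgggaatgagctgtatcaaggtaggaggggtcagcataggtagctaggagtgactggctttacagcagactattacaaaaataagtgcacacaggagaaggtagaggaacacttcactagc
Pgc, plus strand, chr17:47726592-47726891: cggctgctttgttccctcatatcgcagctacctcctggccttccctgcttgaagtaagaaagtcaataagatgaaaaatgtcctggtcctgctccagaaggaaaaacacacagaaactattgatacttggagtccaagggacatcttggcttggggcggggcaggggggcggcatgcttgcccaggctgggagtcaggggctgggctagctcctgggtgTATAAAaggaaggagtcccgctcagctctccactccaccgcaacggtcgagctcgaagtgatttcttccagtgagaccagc
On either strand, CATATG, an E-box form bound by Bhlha15, TCAAGGTCA, bound by estrogen-related receptors, AGATAA, bound by GATA factors, and TGTTTAC, bound by forkhead factors, were searched with TATAAA, and none of these motifs contains another. In the windows of the 6 matched genes, the search found TATAAA in Pgc alone, with its first base 31 bases upstream of the start site. Among all 32851 windows of that length, 13.6% held TATAAA, 11.2% AGATAA, 3.91% CATATG, 3.65% TGTTTAC and 0.423% TCAAGGTCA. A match is a description of the letters, not a binding site.

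In stomach cells against the mean of 7 other organs, 5 of the 6 genes tested were higher. Over all 13107 genes tested, 9.08% were called higher. Cblif and Pgc passed the filter through stomach cells alone. Cblif had levels of 13.13 and 12.50 in the 2 stomach samples, against a mean of 3.24 in the other organs, and differed by 9.58 ± 0.20 (adjusted p = 9.6e-29). Pgc had 12.76 and 12.69, against 3.31, and differed by 9.42 ± 0.26 (adjusted p = 3.4e-25). Both chief cell products were thus high in either stomach sample, and none of the 88 samples outside the stomach reached the lower stomach level of Cblif or Pgc. The highest level outside was 6.39 for Cblif, in small intestinal adenoma 1, and 4.63 for Pgc, in liver cells 2.

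The pump genes were higher too, but their levels in the 2 stomach samples lay far apart. Atp4a had 6.92 and 11.11 in stomach cells 1 and 2, against 4.18 in the other organs, and differed by 4.84 ± 0.45 (adjusted p = 1.5e-10). Atp4b had 8.43 and 12.76, against 4.45, and differed by 6.15 ± 0.45 (adjusted p = 3.3e-13). Kcne2 had 4.16 and 8.54, against 3.34, and differed by 3.01 ± 0.70 (adjusted p = 0.0014). Stomach cells 2 was the high sample for all 3 genes. The SD of the 2 stomach samples was 2.96 for Atp4a, 3.07 for Atp4b and 3.10 for Kcne2. The standard errors and p-values of limma rest on a spread shared by all 40 sorted samples, and understate that of stomach cells. Without stomach cells 2, Kcne2 differed by 0.82 (adjusted p = 0.54), while Atp4a differed by 2.74 and Atp4b by 3.98 and both were still called. Without stomach cells 1, the differences were 6.93 for Atp4a, 8.31 for Atp4b and 5.20 for Kcne2.

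The gap between the stomach samples was 4.19 for Atp4a, 4.33 for Atp4b and 4.39 for Kcne2, as sample 2 minus sample 1, or 18.2-fold, 20.2-fold and 20.9-fold. These differences have no replicate check. Over 11193 genes above the filter in either sample the median gap was -0.12 with an SD of 0.79, and 8 genes (0.0715%) were over 4 higher in sample 2. The other 5 of these were Krt6b, Krtdap, Krt13, Tnni3 and Smim38, which are named because of their values. Krt6b, Krtdap and Krt13 are genes of squamous epithelium, which lines the mouse forestomach. In the opposite direction, the largest gap was that of Prss2, a pancreatic trypsinogen, at -6.69. The mean level of 9 pancreatic acinar genes was 8.91 in stomach cells 1 and 5.33 in stomach cells 2, and that of 8 squamous genes was 4.41 and 6.62 in the same order. The part of this unequal makeup in the gap of the pump genes was not tested. Cblif, Pgc and Bhlha15 had gaps of -0.63, -0.07 and -0.18, so these 3 genes did not share the split.

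Bhlha15 was not called in stomach cells against the other organs, and Lipf was near background there. Bhlha15 had 6.48 and 6.30 in stomach cells, against 6.30 as the mean of the other organs, a difference of 0.09 ± 0.38 (adjusted p = 0.89, 95% interval -0.68 to 0.86). That mean holds prostate and salivary gland cells, at 10.85 and 9.79, while the other 5 organs averaged 3.69 to 6.01, and stomach cells had the group mean of rank 3 among the 29 groups. Lipf had 2.76 and 2.93 in stomach cells and was under the filter value of 4.06, so it was not tested. Its probe set stayed between 2.42 and 3.16 in all 15 gastric samples, near background throughout.

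The other genes of these cells were read from lists of textbook markers. Of 14 tested parietal genes outside the 7, 8 were higher in stomach cells than in other organs and 0 lower, with a median difference of 1.23, against -0.02 over all genes. They included Cldn18, a stomach tight junction protein (7.06 ± 0.56), Tesc, a calcium binding partner of a sodium proton exchanger (4.71 ± 0.51), and Clic6, a chloride channel protein (4.43 ± 0.59). Between stomach cells 1 and 2 their gaps were 0.298, 0.477 and 1.53, under those of the pump genes. The 14 were tested out of 19 measured, and not every parietal gene was high. Slc26a7 was at 2.94 and 3.33 in stomach cells 1 and 2, and Chrm3 at 3.46 and 3.41. Both were near background and are named for these values. Of 10 tested chief cell genes, 5 were higher and 1 lower, with a median of 1.45. Pga5, another pepsinogen (6.15 ± 0.43), and Chia1, an acidic chitinase (4.61 ± 0.49), were higher, and Dnase1, a secreted nuclease, was lower (-3.80 ± 0.40). Markers of the neighbouring gland cells were also high, with 7 of 7 surface pit genes, 8 of 9 mucous neck genes and 6 of 7 endocrine genes called higher. The excess was not confined to gland cells. Of other lists, 8 of 8 proliferation genes, 6 of 6 squamous genes and 4 of 8 intestinal genes were called higher. Of macrophage and leukocyte genes, 6 of 8 were called lower. Over all genes tested, 9.08% were called higher and 10.0% lower.

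**Figure D1:**
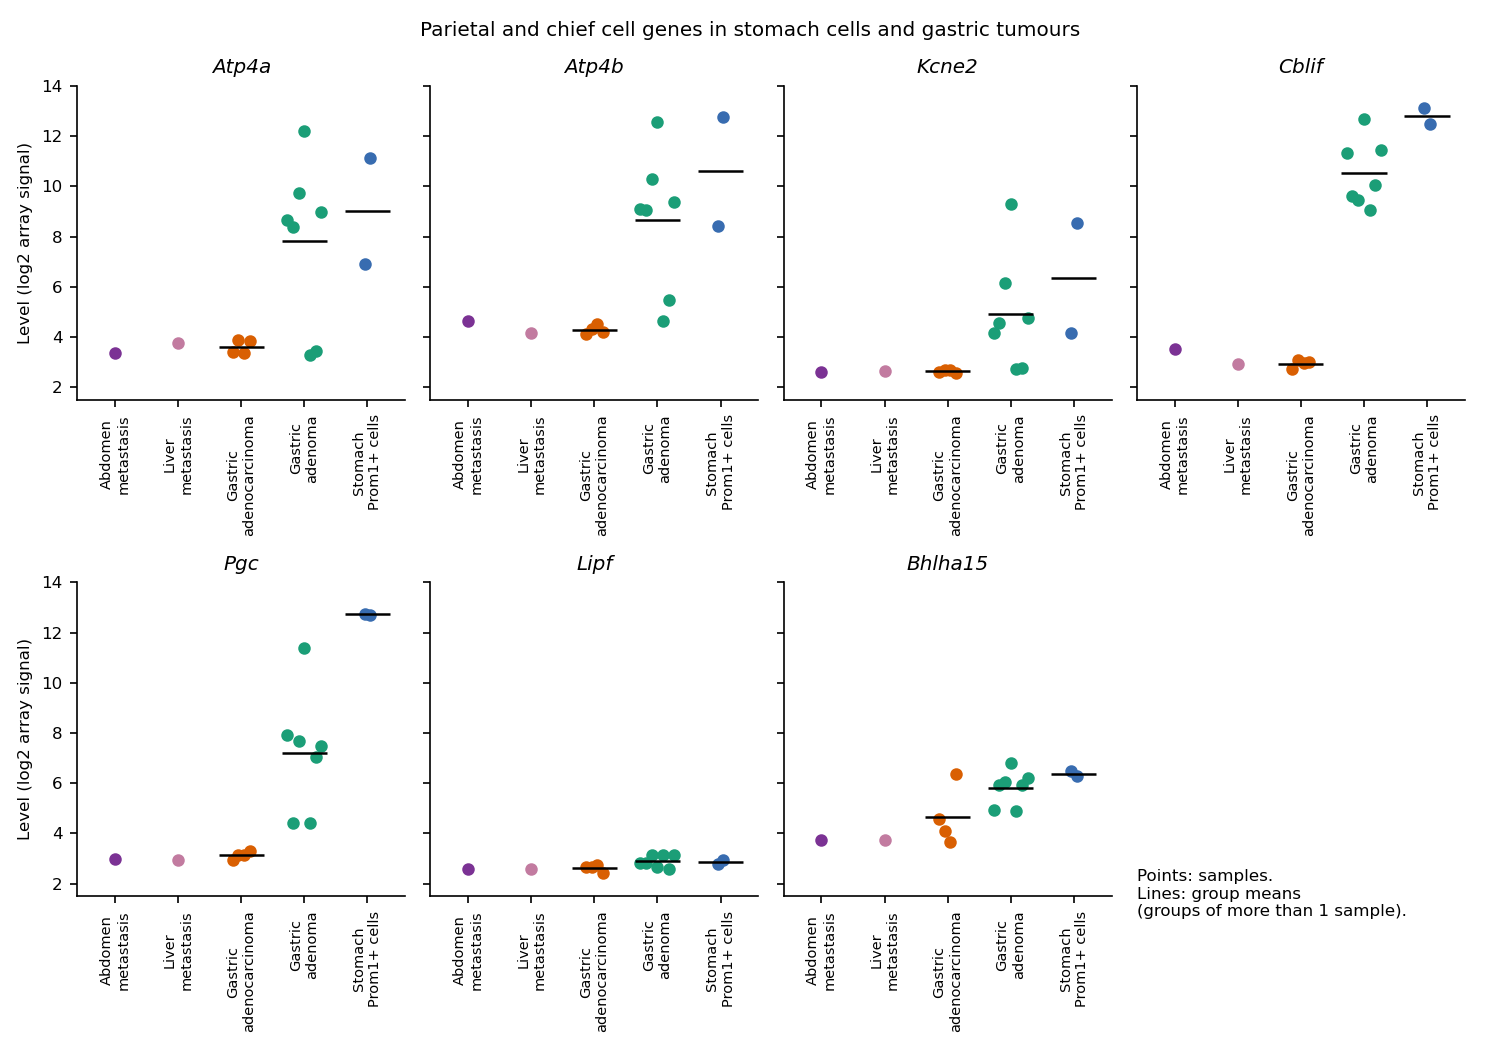
Level of each gene (log2 array signal) in every gastric sample, with metastases and adenocarcinomas at the left, then adenomas and stomach Prom1+ cells. Points are samples and lines group means. Atp4a, Atp4b, Kcne2, Cblif and Pgc are near background in all 6 adenocarcinoma and metastasis samples, and adenomas run from 3.28 to 12.20 for Atp4a, while Lipf is near background everywhere.

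Gastric adenomas were compared with stomach cells. Of 6 genes tested, 1 was lower and 0 higher, with 3.07% of all 10960 genes called lower and 8.07% higher. Pgc had 7.90, 4.42, 7.67, 11.40, 4.42, 7.05 and 7.48 in adenomas 1 to 7, against 12.76 and 12.69 in stomach cells. All 7 adenomas lay below both stomach samples. The difference was -5.53 ± 1.49 (adjusted p = 0.032). This call was lost with array weights (adjusted p = 0.078) and without adenoma 3, adenoma 7, stomach cells 1 or stomach cells 2 (adjusted p of 0.051, 0.054, 0.13 and 0.13), with differences of -5.50 to -6.05 in these settings.

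Cblif varied less between adenomas than Pgc did. It had 11.31, 9.60, 9.47, 12.67, 9.08, 10.04 and 11.43 in adenomas 1 to 7, against 13.13 and 12.50 in stomach cells. Only adenoma 4 reached into the range of stomach cells, and the lowest adenoma lay far above the adenocarcinomas. The difference of -2.30 ± 0.83 missed the threshold (adjusted p = 0.083, 95% interval -4.16 to -0.45). It was called without adenoma 4 (adjusted p = 0.019) and in a joint fit of all samples (9.8e-05). A joint fit of the gastric samples other than the metastases called it too (0.047).

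The parietal genes ran over a wide range. Atp4a had 8.67, 8.40, 9.75, 12.20, 3.28, 3.46 and 8.99 in adenomas 1 to 7, against 6.92 and 11.11 in stomach cells. Atp4b had 9.12, 9.05, 10.28, 12.57, 4.64, 5.48 and 9.37, against 8.43 and 12.76. Kcne2 had 4.16, 4.56, 6.14, 9.29, 2.71, 2.77 and 4.75, against 4.16 and 8.54. Adenoma 4 was the highest for all 3 genes, adenomas 5 and 6 were the lowest for all 3, and the groups overlapped. The differences were -1.20 ± 2.19 for Atp4a, -1.95 ± 1.88 for Atp4b and -1.44 ± 1.63 for Kcne2 (adjusted p of 0.73, 0.50 and 0.56). Their 95% intervals were wide, at -6.08 to 3.69 for Atp4a, -6.15 to 2.24 for Atp4b and -5.07 to 2.19 for Kcne2. The direction of all 3 turned with 1 sample. Without stomach cells 2 the differences were 0.90, 0.21 and 0.75 for Atp4a, Atp4b and Kcne2, and without stomach cells 1 they were -3.29, -4.12 and -3.63. Atp4b alone of the 3 was called in a joint fit of all samples (adjusted p = 0.045).

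In adenomas 5 and 6 Atp4a and Kcne2 were near background while Cblif was at 9.08 and 10.04. For these samples 3 further genes were picked after their values were seen. Esrrg, an orphan nuclear receptor of parietal cells, was at 3.01 and 3.02 there, 4.18 to 8.98 in the other adenomas, and 4.27 and 7.58 in stomach cells 1 and 2, where stomach cells 2 was again the higher. Chia1 was at 2.81 and 3.19 in adenomas 5 and 6, and at 10.71, 3.09, 6.74, 12.47 and 9.31 in adenomas 1, 2, 3, 4 and 7. Gast, which encodes the hormone gastrin of the antrum, was at 8.03, 6.40 and 8.78 in adenomas 5, 6 and 7, at 3.05 to 3.40 in adenomas 1 to 4, and at 13.49 and 12.56 in stomach cells. The site of each adenoma in the stomach is not given, and its part in this spread was not tested.

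Bhlha15 had 4.92, 5.92, 6.03, 6.81, 4.91, 5.91 and 6.19 in adenomas 1 to 7, against 6.48 and 6.30 in stomach cells, a difference of -0.57 ± 0.46 (adjusted p = 0.42, 95% interval -1.61 to 0.46). Among the other parietal genes, 0 of 15 were higher and 1 was lower, Vegfb, a growth factor (-1.29 ± 0.36), with a median of 0.10 against 0.11 over all genes. Among the other chief cell genes, 1 of 8 was higher and 1 lower, with a median of -1.38. The lower gene was Spdef, a transcription factor of secretory epithelium (-1.43 ± 0.42), and the higher was Nupr1, a stress induced nuclear protein (1.08 ± 0.33, named for its call), while Pga5 differed by -2.73 ± 1.10 and missed the threshold (adjusted p = 0.11). Markers of smooth muscle and fibroblasts were higher (4 of 6 tested), those of pancreatic acinar cells lower (6 of 8), and general epithelial genes higher in 2 of 7. The part of these other cells in the levels of the gland genes was not tested.

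Gastric adenocarcinomas had the 5 pump, channel, intrinsic factor and pepsinogen genes near background. Of 6 genes tested against stomach cells, 5 were lower and 0 higher, while 10.5% of all 11237 genes were called lower and 17.9% higher. Atp4a, Kcne2, Cblif and Pgc were under the filter value of 4.12 in adenocarcinomas and were tested only because stomach cells were above it, so they could come out only lower. Cblif had 2.73, 3.08, 2.95 and 2.99 in adenocarcinomas 1 to 4, against 13.13 and 12.50 in stomach cells, a difference of -9.88 ± 0.33 (adjusted p = 6.9e-06). Pgc had 2.93, 3.12, 3.15 and 3.29, against 12.76 and 12.69, a difference of -9.60 ± 0.30 (adjusted p = 6.4e-06). All 4 tumours lay in a narrow band for both genes, and as the band is near background the differences are lower bounds.

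The acid pump followed the same course. Atp4a had 3.40, 3.88, 3.35 and 3.82 in adenocarcinomas 1 to 4, against 6.92 and 11.11 in stomach cells, a difference of -5.41 ± 0.97 (adjusted p = 0.0053). Atp4b had 4.10, 4.33, 4.52 and 4.21, against 8.43 and 12.76, a difference of -6.30 ± 0.99 (adjusted p = 0.0031). Kcne2 had 2.62, 2.68, 2.68 and 2.56, against 4.16 and 8.54, a difference of -3.72 ± 0.98 (adjusted p = 0.024). No adenocarcinoma overlapped a stomach sample for these genes. For Atp4a the SD was 0.28 in adenocarcinomas and 2.96 in stomach cells. The standard errors of limma rest on a spread shared by both groups, and understate that of stomach cells. In other settings the adjusted p rose to 0.048 for Atp4a and 0.012 for Atp4b, both still called. For Kcne2 the call was lost in a joint fit of the gastric samples other than the metastases (adjusted p = 0.064). The sizes rested on the stomach sample used. Without stomach cells 2 the differences were -3.31 for Atp4a, -4.14 for Atp4b and -1.53 for Kcne2, and without stomach cells 1 they were -7.50, -8.47 and -5.91, all still called.

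Against adenomas, the same 5 genes were lower in adenocarcinomas, with 11.4% of all 10968 genes called lower and 13.7% higher. Here too Atp4a, Kcne2, Cblif and Pgc passed the filter through adenomas alone. Cblif averaged 2.94 ± 0.15 in adenocarcinomas and 10.51 ± 1.31 in adenomas (SD, n = 4 and 7), and the difference of -7.58 ± 0.43 had an adjusted p of 3.1e-19. Pgc averaged 3.12 ± 0.15 and 7.19 ± 2.38 (difference -4.07 ± 0.54, adjusted p = 5.8e-08). The standard errors and p-values of limma rest here on a spread shared by 55 primary tumours, and understate that of adenomas. In other settings the adjusted p rose to 1.2e-06 for Cblif and 0.0058 for Pgc, both still called. No adenocarcinoma overlapped an adenoma for Cblif or Pgc. The comparisons of gastric groups share adenocarcinomas, adenomas or stomach cells with each other, so their calls are not independent.

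For the parietal genes the adenocarcinomas met the lowest adenomas. Atp4a averaged 3.61 ± 0.28 in adenocarcinomas and 7.82 ± 3.29 in adenomas (difference -4.21 ± 0.88, adjusted p = 1.3e-04), and adenomas 5 and 6, at 3.28 and 3.46, lay within or below the range of the adenocarcinomas. Atp4b averaged 4.29 ± 0.18 and 8.64 ± 2.74 (difference -4.35 ± 0.63, adjusted p = 2.7e-07), and the lowest adenoma, at 4.64, was just above the highest adenocarcinoma, at 4.52. Kcne2 averaged 2.63 ± 0.06 and 4.91 ± 2.27 (difference -2.28 ± 0.52, adjusted p = 4.2e-04). With the spread taken from adenocarcinomas, adenomas and stomach cells alone, Kcne2 was not called (adjusted p = 0.11). In other settings the adjusted p rose to 0.035 for Atp4a and 0.014 for Atp4b, both still called.

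Bhlha15 was not called in either comparison, and adenocarcinoma 4 was its highest tumour. It had 4.58, 4.10, 3.64 and 6.37 in adenocarcinomas 1 to 4, against 4.91 to 6.81 in adenomas and 6.48 and 6.30 in stomach cells. The difference was -1.14 ± 0.66 against adenomas (adjusted p = 0.16) and -1.71 ± 0.70 against stomach cells (adjusted p = 0.096). Without adenocarcinoma 4 it was -1.71 against adenomas (adjusted p = 0.048) and -2.28 against stomach cells (adjusted p = 0.0078). Against stomach cells it was also called with quantile normalization (-2.10, adjusted p = 0.049). With the mean of both probe sets it was -0.59 against adenomas and -0.90 against stomach cells, and not called. In adenocarcinoma 4, Jchain, the immunoglobulin joining chain of plasma cells, which also use Mist1, was at 12.11, against 7.45, 6.84 and 9.28 in adenocarcinomas 1 to 3. The mean level of the 9 pancreatic acinar genes was 7.57, 3.93, 3.85 and 4.496 in adenocarcinomas 1 to 4, highest in adenocarcinoma 1, which was second for Bhlha15. The part of plasma cells or acinar cells in the Bhlha15 levels was not tested.

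**Figure D2:**
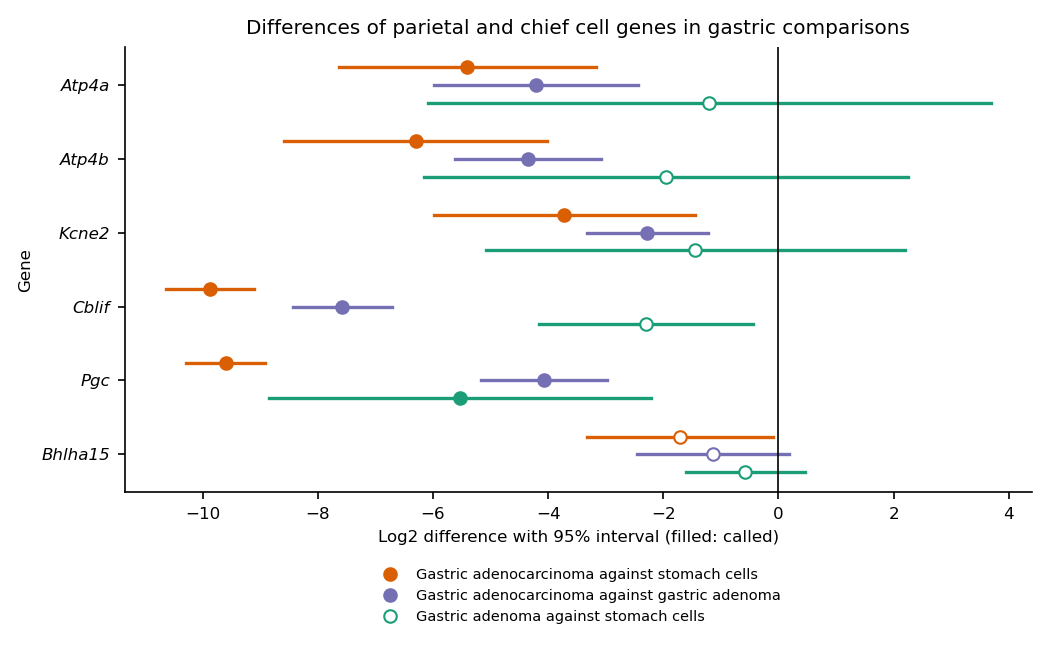
Log2 differences with 95% intervals for the 6 tested genes, for gastric adenocarcinoma against stomach cells, adenocarcinoma against adenoma and adenoma against stomach cells. Filled points are called, and 5 of 6 are filled in both adenocarcinoma comparisons, against Pgc alone for adenoma against stomach cells.

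The other gland genes of the adenocarcinomas were lower in part. Of 15 parietal genes tested against adenomas, 11 were lower and 0 higher, with a median of -2.38 against 0.09 over all genes. Car2, the carbonic anhydrase that supplies protons to the pump, differed by -4.81 ± 0.59, Cldn18 by -4.42 ± 0.71, Fbp2, a muscle type fructose bisphosphatase, by -3.69 ± 0.71 and Tesc by -3.63 ± 0.93. Car2 was at 6.22 to 8.97 in the 4 adenocarcinomas and thus well above background. Cldn18 was at 3.30 and 3.22 in adenocarcinomas 1 and 2 but at 10.73 and 10.57 in adenocarcinomas 3 and 4, against 11.15 to 11.73 in adenomas. It was thus high in adenocarcinomas 3 and 4 and adenomas 5 and 6, where Atp4a and Kcne2 were near background. Cldn18 therefore does not mark parietal cells alone. Kcnq1, the pore of the channel that Kcne2 joins, was named for that pairing and differed by -2.38 ± 0.65, with a mean of 6.28 in adenocarcinomas and 8.67 in adenomas, above background in both. Against stomach cells 7 of 13 parietal genes were lower and 0 higher, with a median of -2.39 against 0.18.

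Among other chief cell genes, 5 of 8 were lower and 0 higher in adenocarcinomas than in adenomas, with a median of -2.14, and 6 of 8 were lower against stomach cells, with a median of -3.69. Fam3b, a secreted protein, differed by -5.96 ± 0.53 against adenomas, Chia1 by -4.01 ± 0.93, Pga5 by -3.61 ± 0.41 and Spdef by -2.72 ± 0.49. Chia1 and Pga5 were at 2.80 to 3.25 in all 4 adenocarcinomas.

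Genes of the other gastric lineages were lower as well, with 7 of 7 surface pit genes, 6 of 7 endocrine genes and 4 of 9 mucous neck genes called lower against adenomas, and 1 mucous neck gene, Cd44, higher (1.62 ± 0.59, named for its call). Outside these lineages, 5 of 5 tested intestinal genes and 4 of 7 squamous genes were called lower. Of 7 tested pancreatic acinar genes, 3 were higher and 1 lower. The genes of the gastric lineages did not all reach background. Gkn1, a secreted protein of pit cells, was at 10.60, 4.21, 10.55 and 9.52 in adenocarcinomas 1 to 4, and Tff2, the trefoil peptide of mucous neck cells, at 12.57, 3.81, 10.94 and 8.82. Adenocarcinomas 1, 3 and 4 thus had these 2 mucosal transcripts well above background beside pump and chief cell genes near it, and adenocarcinoma 2 was low in both. General epithelial genes were called in neither direction (0 of 7, mean level 8.98 in adenocarcinoma 2, and 10.80 to 11.24 in the others), and 6 of 8 macrophage and leukocyte genes were higher. The part of these cell types in the low gland genes was not tested.

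**Figure D3:**
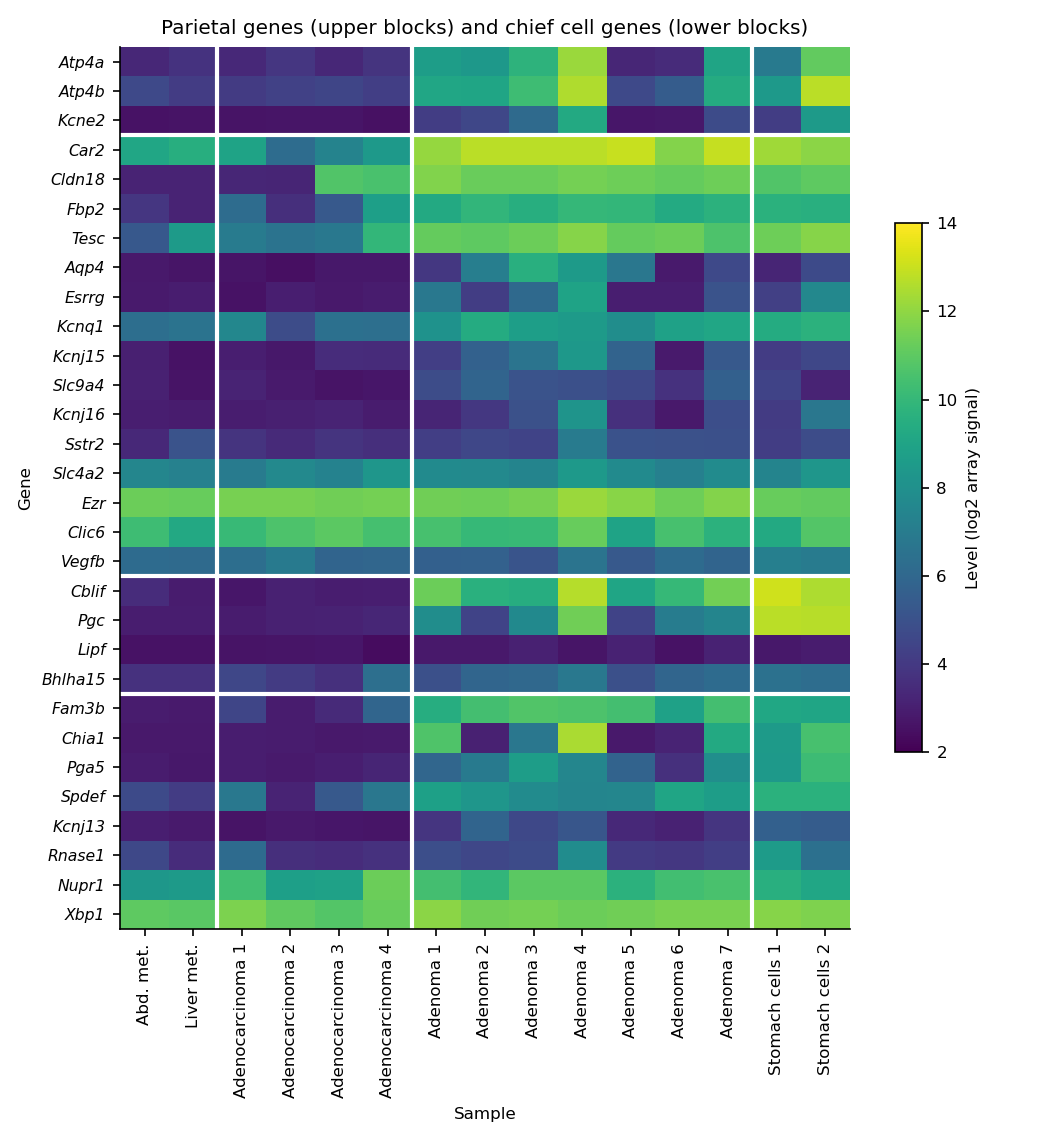
Levels (log2 array signal, colour) of the 7 genes and of the tested genes of the parietal and chief cell lists in each gastric sample, from metastases at the left to stomach cells at the right. Adenomas 5 and 6 are dark for Atp4a and Kcne2 but light for Cblif, and Cldn18 is light in adenocarcinomas 3 and 4 alone among the adenocarcinomas and metastases.

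The metastases of gastric adenocarcinoma had low levels as well. Atp4b had 4.63 in the abdominal and 4.13 in the liver metastasis, against 4.10 to 4.52 in adenocarcinomas, a difference of 0.09 ± 0.86 (95% interval -1.64 to 1.81). Bhlha15 had 3.72 and 3.73, against 3.64 to 6.37, a difference of -0.95 ± 0.90 (95% interval -2.75 to 0.86). Neither was called or had an unadjusted limma p under 0.05, with 0.662% of all 10728 genes called higher and 0.0932% lower, and the metastases, with 1 sample per site, were joined for this test. Cblif had 3.51 and 2.91, Atp4a 3.36 and 3.76, Pgc 2.97 and 2.94, Kcne2 2.59 and 2.65 and Lipf 2.59 and 2.59 in the abdominal and liver metastasis. These genes were under the filter in both groups and were not tested. Of 10 tested genes of the list of other parietal genes, 1 was called lower in metastases, Cldn18 (-3.76 ± 0.97, adjusted p = 0.043). It was at 3.21 and 3.18, against 3.30, 3.22, 10.73 and 10.57 in adenocarcinomas, and both metastases were near the 2 low primary tumours.

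Adenomas and adenocarcinomas were then set against the tumours of other organs. In adenomas 5 of 7 genes were higher than the mean of the other tumour groups, with 7.73% of all 12695 genes called higher. Pgc passed the filter through adenomas alone, so it could come out only higher. The standard errors rest on a spread shared by all 55 primary tumours, not on that of adenomas. Cblif differed by 7.36 ± 0.28, Atp4b by 4.35 ± 0.42, Pgc by 4.19 ± 0.36, Atp4a by 4.12 ± 0.59 and Kcne2 by 1.91 ± 0.35, or by 1.18 without adenoma 4. Bhlha15 differed by 1.04 ± 0.44 and missed the threshold (adjusted p = 0.058), but was called in a joint fit of all samples (0.022), with array weights (0.0032) and without adenoma 1 (0.043) or adenoma 5 (0.046). With the mean of both probe sets it differed by 0.46 and was not called. In adenocarcinomas 0 of 6 genes were called, with 8.38% of 12715 genes called higher and 8.09% lower, and the differences lay between -0.37 and 0.00. The 95% interval was -0.94 to 0.51 for Cblif and -1.07 to 1.07 for Atp4b, and -1.59 to 1.41 for Atp4a. None of the 6 had an unadjusted limma p under 0.05.

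The order of group means was read over all 29 groups, as a description. Adenomas and stomach cells held the 2 highest means of Atp4a (7.82 and 9.02), Atp4b (8.64 and 10.60), Cblif (10.51 and 12.82) and Pgc (7.19 and 12.72). The ranges of these groups overlapped for Atp4a, Atp4b and Cblif, but not for Pgc. The next group was kidney cells for Atp4a (7.41 ± 0.17, SD, n = 4), prostate cells for Atp4b (4.68 ± 0.36, n = 3), small intestinal adenoma for Cblif (4.14 ± 1.95, n = 3) and liver cells for Pgc (3.70 ± 0.54, n = 5). These next groups overlapped adenomas in range for Atp4a, Atp4b and Pgc, but not for Cblif. For Kcne2, stomach cells (6.35 ± 3.10, n = 2) were followed by bronchopulmonary adenocarcinomas (5.46 ± 1.01, n = 2), uterus cells (4.96 ± 2.43, n = 4) and adenomas (4.91 ± 2.27, n = 7), and the ranges of all 4 groups overlapped.

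**Figure D4:**
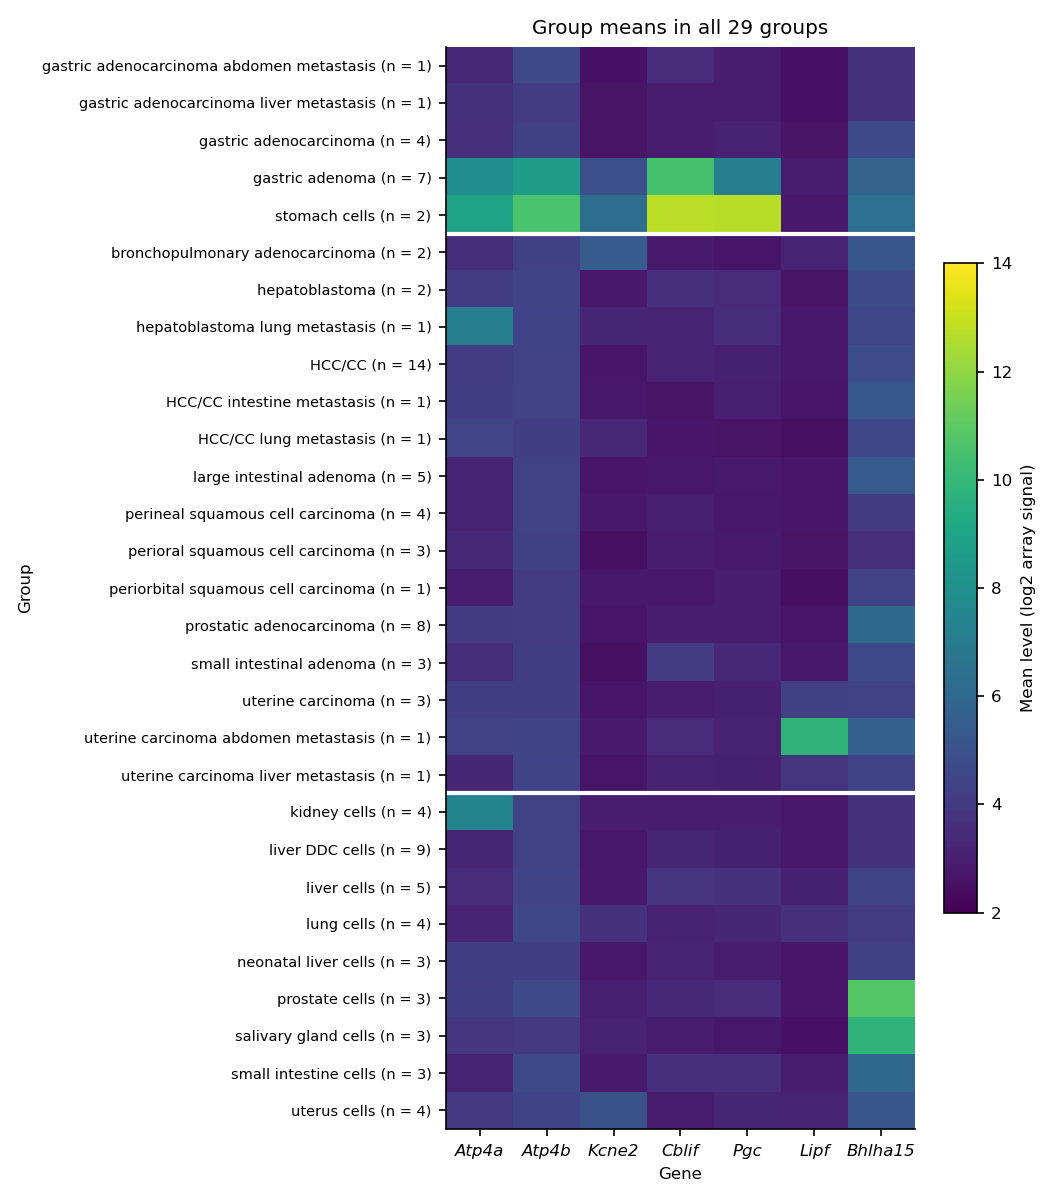
Mean level (log2 array signal, colour) of each gene in all 29 groups, with the gastric groups in the upper block, other tumours and metastases in the middle and sorted cells below. Atp4b, Cblif and Pgc are light in adenomas and stomach cells only, Atp4a also in kidney cells and the hepatoblastoma lung metastasis, and Bhlha15 is lightest in prostate and salivary gland cells.

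Outside the stomach, Atp4a was high in kidney cells, at 7.29, 7.24, 7.51 and 7.59, against a mean of 4.41 in the other organs, a difference of 3.0 ± 0.33 (adjusted p = 1.8e-09). Of all genes, 16.3% were called higher there. Kidney collecting ducts are known to use a proton potassium pump. Atp4b averaged 4.36 in kidney cells, against 5.34 in the other organs, whose mean holds the stomach cells, and its difference of -0.98 ± 0.33 was under the fold threshold, though it was called with array weights (-1.01) and without kidney cells 2 (-1.05) or kidney cells 3 (-1.08). Atp4a was also at 7.16 in the hepatoblastoma lung metastasis and at 2.96 to 6.28 in HCC/CC (median 3.55, n = 14), and 7 samples outside the stomach were above 6 for Atp4a, against 0 for Atp4b and Pgc.

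Kcne2 was uneven in uterus cells, at 3.09, 8.18, 5.52 and 3.07, against 3.54 in the other organs, with 15.3% of all genes called higher. The difference of 1.42 ± 0.52 (adjusted p = 0.026) was lost without uterus cells 2 (0.35, adjusted p = 0.56) or uterus cells 3 (1.24, adjusted p = 0.10), and was 2.46 with array weights. Uterine carcinomas had 2.61, 2.76 and 2.71, below all 4 uterus samples, a difference of -2.27 ± 1.16 (adjusted p = 0.17) that was called in a joint fit of all samples (0.010) and was -3.62, not called, with array weights. Bronchopulmonary adenocarcinomas had 6.17 and 4.75, against 4.86, 3.67, 3.04 and 3.37 in lung cells, a difference of 1.73 ± 0.64 (adjusted p = 0.14) that was called with array weights (0.025) and without lung cells 1 (0.036), and that was 1.02 without bronchopulmonary adenocarcinoma 1.

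Lipf was at 9.81 in the abdominal metastasis of uterine carcinoma, the highest of all samples. The liver metastasis of that tumour type had 3.80. Uterine carcinomas had 5.30, 2.84 and 4.68, against 2.70 to 3.74 in uterus cells, a difference of 1.11 ± 0.59 (adjusted p = 0.18). It was called in a joint fit of all samples (5.0e-04) and without uterine carcinoma 2 (1.83, adjusted p = 0.023). No other group had a mean above 4 for Lipf.

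Bhlha15 had another distribution and was highest in cells of exocrine glands. Prostate cells had 10.70, 11.32 and 10.53, against 5.66 in the other organs, a difference of 5.19 ± 0.32 (adjusted p = 1.4e-15), with 10.4% of all genes called higher. Salivary gland cells had 9.90, 9.91 and 9.57, against 5.81, a difference of 3.98 ± 0.32 (adjusted p = 1.6e-12), with 10.9% of all genes called higher. The second Bhlha15 probe set had 4.48 to 4.99 in salivary gland cells and 3.14 to 4.03 in prostate cells, and lay at 2.65 to 3.40 in HCC/CC. With the mean of both probe sets, the difference of prostate cells was 2.88, still called.

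The prostate tumours were lower in Bhlha15 than prostate cells. The 8 prostatic adenocarcinomas had a lowest level of 4.14, a median of 5.68 and a highest of 10.06, against 10.53 to 11.32 in prostate cells. No tumour overlapped a prostate sample, and the difference was -4.73 ± 0.99 (adjusted p = 0.0035), with 8.69% of all genes called lower. With the mean of both probe sets it was -2.85, still called. Small intestinal adenomas had 4.93, 4.90 and 4.07, against 5.70, 6.38 and 5.96 in small intestine cells, a difference of -1.38 ± 0.33 (adjusted p = 0.019), with 8.43% of all genes called lower. That call was lost with the mean of both probe sets, where the difference was -0.77, in a joint fit of all samples (adjusted p = 0.15), and without small intestinal adenoma 3, small intestine cells 2 or small intestine cells 3 (adjusted p of 0.055, 0.057 and 0.054). In HCC/CC, Bhlha15 differed by 0.41 ± 0.52 from liver cells (adjusted p = 0.54), or by 0.81 without liver cells 3.

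**Figure D5:**
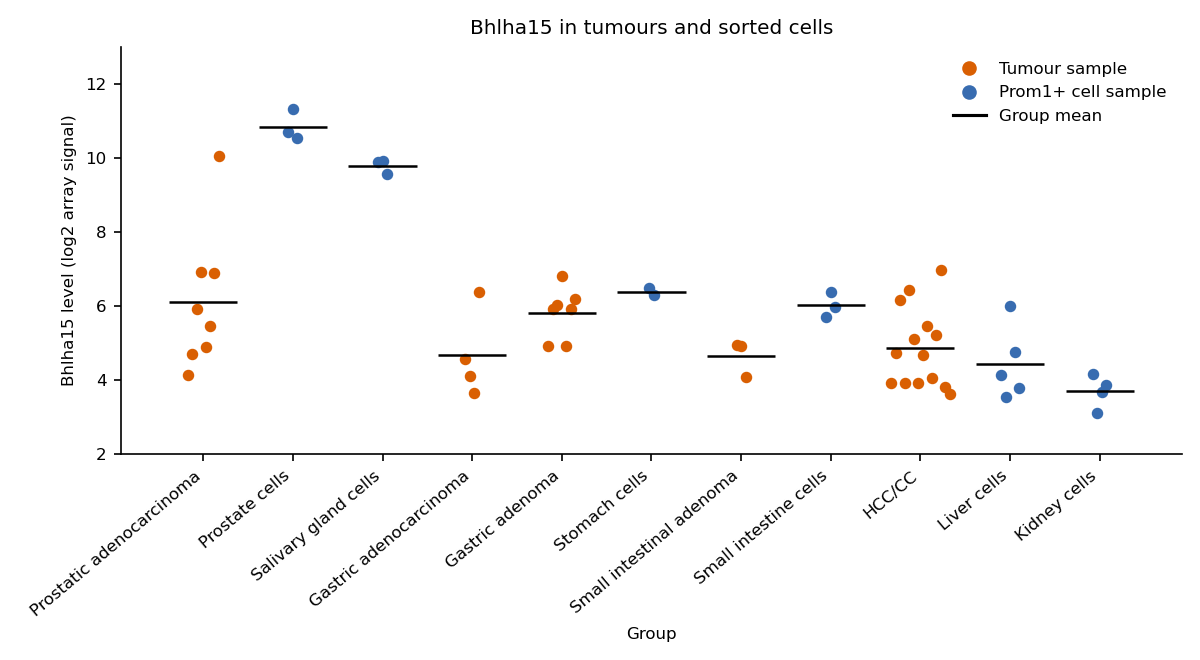
Bhlha15 level (log2 array signal) in each sample of 11 groups, with tumours left of the sorted cells of their organ. Points are samples and lines group means. Prostate and salivary gland cells lie between 9.57 and 11.32, all prostatic adenocarcinomas lie below prostate cells, and sample 8, at 10.06, lies far above the other 7.

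The genes most like the pump and the chief cell products were found over the 29 group means. They were ranked among 7743 genes outside the 7 with a group mean over 8 somewhere. These correlations are a description, since all rest on the high stomach groups. With the mean of Atp4a and Atp4b, Pearson r was 0.89 for Gsdma2, 0.87 for Pga5, 0.83 for Gast, 0.80 for A4gnt and 0.79 for Ghrl. With the mean of Cblif and Pgc, r was 0.94 for Gsdma2, 0.93 for Gast, 0.91 for Pga5, 0.89 for Ghrl and 0.88 for Nkx6-3. Gsdma2, a gasdermin, averaged 2.81 in adenocarcinomas, 10.86 in adenomas and 10.08 in stomach cells, and its highest mean elsewhere was 3.70. Ghrl, the hormone ghrelin, had 2.96, 10.11 and 9.90 in the same groups. Among the 7 genes, r with the pump genes was 0.91 for Cblif, 0.91 for Pgc and 0.69 for Kcne2. With the mean of Cblif and Pgc, it was 0.99 for Atp4b, 0.74 for Atp4a and 0.70 for Kcne2. Bhlha15 had r of 0.16 with the pump genes and 0.18 with the chief cell genes, and Lipf -0.02 and -0.03.

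RNA quality and sorting were read from the same arrays. The actin probe difference between the 3′ and 5′ end, which grows as RNA degrades, was 0.46 to 0.86 in adenocarcinomas, 0.54 to 0.90 in adenomas and 0.81 to 1.37 in stomach cells. That actin difference was 0.81 in stomach cells 1 and 1.37 in stomach cells 2, the 2 samples whose pump genes lay far apart. Prom1 was at 3.68 to 8.02 in adenocarcinomas, 2.87 to 11.93 in adenomas and 11.78 to 12.19 in stomach cells. The part of either in the levels of the gland genes was not tested.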

How the data were processed

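The deposited values are log2 array signals, as their range of 1.85 to 14.36 shows, and no scaling was added. The authors used Partek 6.6, per the submitters' processing notes, while their background correction and normalization are not stated there. The medians of the arrays ran from 3.82 to 4.24, and the closest pair of arrays had r = 0.993. Depth does not apply to arrays, and the number of samples limits precision.

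Of 45141 probe sets, 104 controls, 551 with several genes and 15588 not in the annotation used here were left out, and 28898 named 17097 genes. Each gene was read from its brightest probe set. Groups came from the labels. The model was limma (version 3.58.1, with R 4.3.3 and the data.table package, 1.17.8), with an intensity trend and Benjamini-Hochberg adjustment, over genes with a mean above the 40th percentile of the fit's values in any group compared. Tumours against cells of their own organ used those samples alone, organs against organs 40 sorted samples, and tumours against tumours 55 of the 56 primary tumours, without the 1 periorbital carcinoma, a group of 1. The gastric metastases were fitted with these 55, on 57 samples. The test was also run on simulated arrays. These gave each gene the same spread in every group, unlike the data here, so that run cannot vouch for groups of unequal spread. Plots were drawn with matplotlib 3.10.9, and further summaries with pandas 2.3.3 and numpy 2.4.6 under Python 3.11.15.

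The members and gene lists were chosen with earlier results of these data known. Named genes are the 7 members, Prom1, the 5 most alike by group means and up to 4 of a list with the largest difference, and others are named as chosen after their values were seen. Alternatives were quantile normalization, median centring, other filters, the mean of probe sets, joint fits, array weights, a robust prior and each sample left out. Another left out probe sets whose names end in _s_at, _x_at or _a_at. Joint fits held all samples, or the gastric samples other than the metastases.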

Additional observations from a re-analysis of the deposited data

Results flagged for a closer look

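In 4 of 70 combinations of gene and group, in groups of 4 to 10 samples, the sample at one end stood apart from the rest by Dixon's criterion, where chance gives about 5%. Bhlha15 was at 10.06 in prostatic adenocarcinoma 8, against 4.14 to 6.92 in the other 7 tumours. Pgc was at 4.63 in liver cells 2, against 3.20 to 3.59 in the other 4 samples, and Kcne2 at 3.22 in the same sample, against 2.67 to 2.77. Atp4b was at 4.74 in liver DDC cells 6, against 4.10 to 4.38. The 3 liver values lie near background.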

How the results depend on the processing

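No paired analysis was possible because the labels give no replicate numbers shared between groups. No called difference of the 7 genes reversed in the settings run. A single gene lost its call in 8 and gained it in 14 results of other settings, and lost it in 15 and gained it in 14 with a sample left out. For adenomas against stomach cells, 1 of the 7 genes was called, against 3 in a joint fit of all samples, 2 in a joint fit of the gastric samples, 0 with array weights and 0 to 2 with a sample left out, and all genes called numbered 1220, against 730 with array weights and 797 to 1399 with a sample left out (797 without stomach cells 2). For adenocarcinomas against stomach cells, 3190 genes were called, against 1957 to 3013 with a sample left out, the lowest without stomach cells 2. For stomach cells against other organs, 2503 were called, against 1469 to 1823 (1469 without stomach cells 1). For metastases, 81 genes were called, against 28 with a 60th percentile filter and 33 to 156 with a sample left out, 33 without the liver metastasis and 156 without adenocarcinoma 2. With probe sets whose names end in _s_at, _x_at or _a_at left out, Atp4a and Kcne2 had no probe set. That setting thus did not test their calls. For adenocarcinomas against stomach cells and against adenomas, 3 of the 7 genes were called there, where 5 had been. The same counts held for adenomas against other tumours and for stomach cells against other organs. The cause of the other shifts was not tested. Stomach cells had 2 samples, so their spread is poorly known.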
